A study of Mus musculus with 12 samples.

Results

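The genes described here are 10 genes that build inflammasomes or control how strongly interleukin-1 (IL-1) acts: the sensors Nlrp3 and Aim2, the adaptor Pycard, the caspases Casp1 and Casp4, the pore-forming protein Gsdmd, the cytokine Il18, the antagonist Il1rn, the signalling receptor Il1r1 and the decoy receptor Il1r2. They were taken by symbol out of the 55414 genes of one table of whole-lung RNA-seq, and no measured value was part of the rule. Earlier results of these data were known, however, when the list was chosen. To ask what IL-10 made by B cells does after acute lung injury (ALI), the study set 6 IL-10 B-KO mice against 6 IL-10 B-WT mice. Both groups received lipopolysaccharide (LPS), a bacterial cell wall component, through the nose, and the lungs were taken on day 4. IL-10 B-KO mice carry Il10 flox/flox with mb1-Cre, in which the B cell gene mb1 (Cd79a) drives Cre, and IL-10 B-WT is the label of the control genotype. All animals were on the C57BL/6J background. In the study's mice the airspaces were washed out before the lungs were removed. The ages and the exact alleles of the controls are not given in the sources used here. Lungs without LPS were not analysed here, so every value describes a lung exposed to LPS. Each library is 1 lung of 1 mouse, and the values are TPM, a measure of transcript abundance that is corrected for length, adds up to the same total in every library and keeps no sequencing depth.

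An inflammasome is a protein platform that forms inside a cell, mostly in macrophages, monocytes and neutrophils, after a sensor has met a microbial product or a sign of damage. The sensor gathers the adaptor ASC, encoded by Pycard, which activates caspase-1. Caspase-1 cuts the precursors of IL-1β and IL-18 into active cytokines and opens gasdermin D, which forms pores in the cell membrane, while caspase-11, encoded by the mouse gene Casp4, reacts to LPS in the cytosol and also cuts gasdermin D. Secreted IL-1 acts on IL1R1, and this action is held back by the antagonist encoded by Il1rn, which occupies IL1R1 without signalling, and by IL1R2, which binds IL-1 and passes on no signal. These steps are largely controlled after transcription, so RNA levels describe the supply of the parts and not the activity of an inflammasome.

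Before the values of the 10 genes, the libraries themselves were examined. Il10, the targeted gene, lay between 0 and 0.88 TPM in the IL-10 B-WT lungs and between 0 and 0.58 TPM in the IL-10 B-KO lungs (exact permutation test of the difference in mean log2(TPM + 1), two-sided, p = 0.745), a level below the filter, and whole lung reads the Il10 of all cell types. Cd79a separated the genotypes without overlap, at 15.3 to 258.64 TPM against 0 to 5.73 TPM (exact p = 0.00216, the smallest that 6 against 6 lungs allow). Lung epithelial markers such as Sftpc summed to between 22530 and 112023 TPM over the 12 libraries. In the 10 genes, however, 2 libraries lay toward the other genotype. IL-10 B-WT replicate 1 was the highest IL-10 B-WT lung in 9 of 10 genes, and IL-10 B-KO replicate 2 was the lowest IL-10 B-KO lung in 8 of 10. Cd79a and the share of immunoglobulin transcripts kept both of them with the genotype of their label. The share was 0.248% of TPM in the first, where the highest IL-10 B-WT value was 15.4%. It was 0.0647% in the second, the highest value of its genotype. IL-10 B-KO replicate 6 held 0.0533%, and replicates 1, 3, 4 and 5 held only 0.00199% to 0.00706%. The compared lungs therefore differed in B cell transcripts as well as in the targeted allele. Because Cd79a also drives Cre, its level alone does not show how many B cells a lung held. By rank, the other extreme of each genotype was as regular: IL-10 B-WT replicate 5 was the lowest in 10 of 10 genes and IL-10 B-KO replicate 5 the highest in 9 of 10. These counts give the order of the lungs and not their distance from the others. IL-10 B-WT replicate 5 was also the lowest of the 12 lungs in each lung epithelial marker except Scgb1a1, such as Sftpc at 2548.35 TPM. It had the fewest genes above 0 TPM (21380), while its endothelial marker sum was the highest (2639 TPM). All lungs stay in the comparison. The 2 libraries that lay toward the other genotype are called those that stood apart, and each of the 10 genes is also given without them, at 5 against 5 lungs. That choice was made after the values were seen, rests on the same genes and leaves out only libraries that lessen the difference, so the tests over 10 lungs are no independent evidence.

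The promoters of 4 of the genes are shown because Il1r2, Pycard, Nlrp3 and Il1rn had the 4 largest differences between the genotypes. RefSeq (GRCm38.p6) gave 14 promoter windows for 9 of the 10 genes, Gsdmd being the other one, and the windows printed here are the 250 bases before a transcription start, 5′ to 3′ on the strand of the gene. The Il1r2 window, chr1:40085843-40085994 on the plus strand, is cut at 152 bases because the annotation places an untranslated exon of another transcript in the rest. Of the printed bases, 10 of Il1r2 and 7 of Il1rn are already annotated as untranslated. For Nlrp3 the window at chr11:59542436-59542685 (plus strand) is given, for Pycard that at chr7:127993868-127994117 (minus strand), and for Il1rn that at chr2:24336610-24336859 (plus strand). Capitals mark matches, on either strand, to the motifs described next.
Il1r2: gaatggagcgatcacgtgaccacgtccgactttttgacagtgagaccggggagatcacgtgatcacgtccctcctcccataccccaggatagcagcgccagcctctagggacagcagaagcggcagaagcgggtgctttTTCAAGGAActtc
Nlrp3: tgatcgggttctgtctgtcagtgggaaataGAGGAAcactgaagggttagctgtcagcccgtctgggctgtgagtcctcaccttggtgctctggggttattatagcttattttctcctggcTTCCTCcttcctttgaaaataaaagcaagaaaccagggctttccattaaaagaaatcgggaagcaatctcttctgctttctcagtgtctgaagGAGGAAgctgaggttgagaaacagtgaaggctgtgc
Pycard: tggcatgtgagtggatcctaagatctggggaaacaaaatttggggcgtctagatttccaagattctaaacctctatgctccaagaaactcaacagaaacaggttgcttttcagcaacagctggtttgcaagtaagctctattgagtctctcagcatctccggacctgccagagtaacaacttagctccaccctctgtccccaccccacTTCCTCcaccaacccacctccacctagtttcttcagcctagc
Il1rn: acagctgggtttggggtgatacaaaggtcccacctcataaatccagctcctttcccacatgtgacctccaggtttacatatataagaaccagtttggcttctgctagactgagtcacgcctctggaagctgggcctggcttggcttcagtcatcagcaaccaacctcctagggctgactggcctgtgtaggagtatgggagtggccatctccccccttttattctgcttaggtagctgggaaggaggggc

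Motifs of 4 factor families known from myeloid and inflammatory genes were searched on both strands, and they were chosen after the expression values were known. A STAT-type motif (TTCNNNGAA) was found in 1 of the 14 windows, that of Il1r2, with its first base at -111 (TTCAAGGAA). Of all 32851 promoter windows of the same length, 7.02% held it. The Il1r2 match lies at the cut end of the printed window, where the bases annotated as untranslated begin. An ETS-type motif (GAGGAA) was found in 4 of the 14 windows (28.6%), against 23.3% of all windows. It occurred 3 times in the printed Nlrp3 window and 2 times in that of Aim2. The windows of Pycard, at -42, and Casp1, at -108, had 1 match each. The other Nlrp3 window, chr11:59541319-59541568, held no match to any of the 4 motifs. An NF-κB-type motif (GGGA and TTCC with any 2 bases between them) was in 0 of the 14 windows and in 1.21% of all windows, and an interferon response-type motif (GAAA and GAAA, spaced likewise) was in 0 and in 2.98%. The letters are a description of these windows. The windows of Casp4 overlap each other, as do some of those of Il1rn, so the 14 windows are not all distinct sequence. No match of one motif overlapped that of another.

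Some neighbourhoods in the genome (GRCm38, GENCODE release M21) hold several of the genes. Il1r2 (ENSMUSG00000026073, chr1:40074079-40125231) and Il1r1 (ENSMUSG00000026072, chr1:40225080-40317257) lie on the plus strand, 99.8 kb apart, at one end of a cluster of 6 receptor genes that spans 478 kb and ends with Il18r1 and Il18rap. Casp1 (ENSMUSG00000025888, chr9:5298517-5307265) and Casp4 (ENSMUSG00000033538, chr9:5308828-5336783) are separated by 1.56 kb on the plus strand. Il1rn (ENSMUSG00000026981, chr2:24336853-24351494, plus strand) closes a 198 kb row of genes of the IL-36 and IL-38 type. The remaining genes lie apart: Nlrp3 (ENSMUSG00000032691) at chr11:59541568-59566956, Aim2 (ENSMUSG00000037860) at chr1:173350879-173466040, Gsdmd (ENSMUSG00000022575) at chr15:75862327-75867408 and Il18 (ENSMUSG00000039217) at chr9:50554827-50581840 on the plus strand, and Pycard (ENSMUSG00000030793) at chr7:127989708-127993867 on the minus strand. Exons of Pycard overlap those of Gm45205 on the other strand, and without knowledge of the strand setting of the counting, reads of these 2 genes cannot be told apart.

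With all 12 lungs, the mean of every gene was higher in the IL-10 B-KO lungs, and no gene passed the threshold for a differentially expressed gene (DEG). A DEG had an adjusted p of at most 0.05 (limma on log2(TPM + 1), Benjamini-Hochberg over all 15148 genes tested) and a mean difference of at least 1 on the log2 scale in either direction. On this scale the changes of genes with low TPM are understated. All 10 genes passed the filter of at least 1 TPM in at least 6 libraries, and 0 of 10 were called, where 0.0264% of all tested genes were called higher in IL-10 B-KO lungs and 0.495% in either direction. At an unadjusted p of at most 0.05, 2 of 10 were higher (Il1r2 and Pycard) and 0 lower, against 6.83% of all genes higher and 5.71% lower. A log2 fold change above 0 was found for 10 of 10 genes and for 63.2% of all genes, and the median over the 10 genes was 0.86, where the median over all tested genes was 0.10. The groups overlapped in all 10 genes, as in nearly all others: 0.0924% of the tested genes had all IL-10 B-KO lungs above all IL-10 B-WT lungs.

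**Figure D1:**
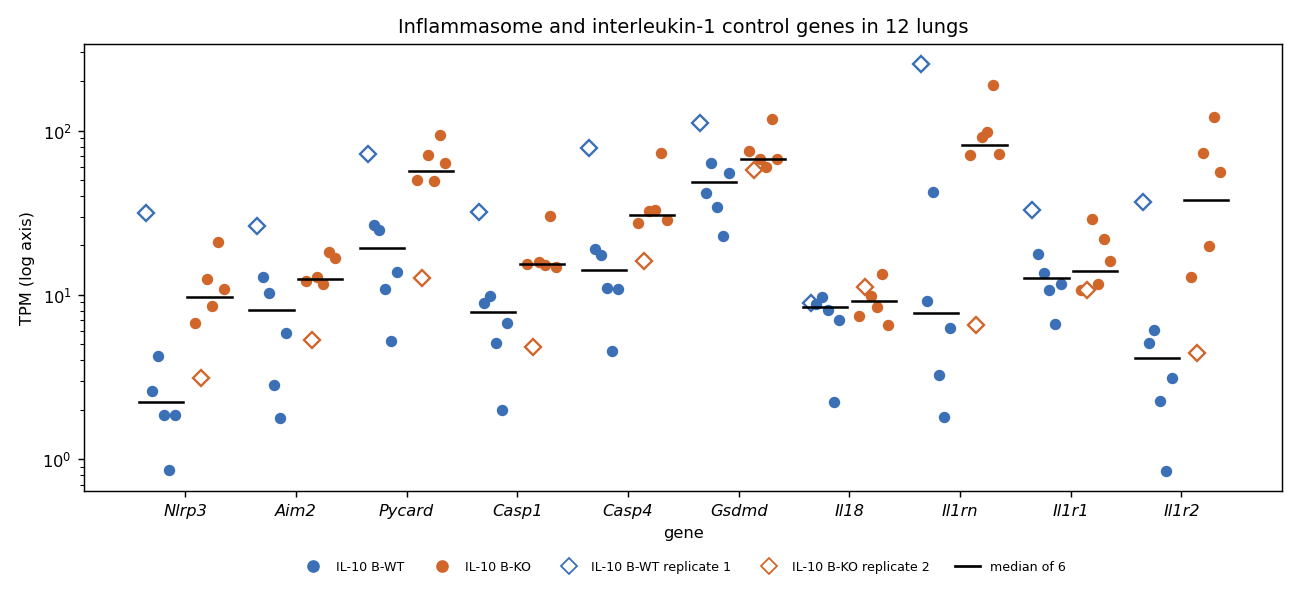
TPM (log axis) of the 10 genes in each lung, IL-10 B-WT in blue and IL-10 B-KO in orange, with the median of 6 as a bar. Open diamonds mark replicate 1 of IL-10 B-WT and replicate 2 of IL-10 B-KO: the first is the highest IL-10 B-WT lung in 9 of 10 genes, and the second is the lowest IL-10 B-KO lung in 8 of 10.

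Without the 2 libraries named above, 6 of 10 genes were called higher in IL-10 B-KO lungs, where 7.04% of all genes were called higher and 9.85% in either direction. These were Nlrp3, Pycard, Casp1, Casp4, Il1rn and Il1r2. In the same 6 genes the 5 IL-10 B-KO lungs lay above the 5 IL-10 B-WT lungs without overlap, which held for 9.12% of all genes. Leaving out the other extreme pair instead, replicate 5 of each genotype, gave 0 calls and 0 of 10 genes past the unadjusted p, with a log2 fold change of 1.65 for Il1r2, 1.34 for Il1rn and -0.12 for Il1r1. Leaving out IL-10 B-WT replicate 1 alone gave 2 calls, Nlrp3 (adjusted p = 0.0357) and Il1r2 (adjusted p = 0.0399), with 2.37% of all genes called higher. Thus the calls depend on which lungs are kept, and with any single lung left out the direction turned in Il1r1 but in no other of the 10 genes.

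Nlrp3, the sensor that reacts to ion fluxes and membrane damage, was the lowest of the 10 genes in IL-10 B-WT lungs. It ranged from 0.86 to 31.67 TPM there, with a median of 2.23, and from 3.11 to 20.91 TPM among IL-10 B-KO lungs (median 9.73). The value of 31.67 TPM belongs to IL-10 B-WT replicate 1, and the other 5 IL-10 B-WT lungs reached at most 4.25 TPM, below 5 of the 6 IL-10 B-KO lungs. The log2 fold change of 1.14 (SE 0.60, 95% interval -0.16 to 2.44) was not significant (adjusted p = 0.449; exact permutation p = 0.136), and at 5 against 5 lungs it was 1.97 (SE 0.32, adjusted p = 0.00266). Aim2 encodes a sensor of DNA in the cytosol and belongs to the interferon-induced genes. Its values spanned 1.77 to 26.28 TPM in IL-10 B-WT lungs (median 8.08) and 5.34 to 18.24 TPM in IL-10 B-KO lungs (median 12.5), so that the groups overlapped widely. The log2 fold change was 0.67 (SE 0.49, adjusted p = 0.554) and did not reach the threshold in the 10 lungs either (1.22, SE 0.40, adjusted p = 0.0574).

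Pycard, which encodes the adaptor shared by both sensors, had a median of 19.2 TPM in IL-10 B-WT lungs (5.28 to 71.93) and of 56.8 TPM in IL-10 B-KO lungs (12.73 to 94.25). In 5 of 6 IL-10 B-KO lungs it exceeded every IL-10 B-WT lung other than replicate 1. Its log2 fold change of 1.35 (SE 0.56, 95% interval 0.15 to 2.56) had an unadjusted p of 0.0304 in limma, an adjusted p of 0.357 and an exact permutation p of 0.0693. With 5 lungs a group, Pycard differed by 2.11 (SE 0.37, adjusted p = 0.00362).

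Casp1 and Casp4 are neighbours on chromosome 9, and Casp4 was the more abundant of the pair per length in all 12 lungs. Casp1, the caspase that matures IL-1β and IL-18, lay at 2.0 to 32.19 TPM in IL-10 B-WT lungs (median 7.85) and at 4.84 to 30.4 TPM in IL-10 B-KO lungs (median 15.3). Casp4, the caspase that senses cytosolic LPS, had medians of 14.3 TPM (4.58 to 78.44) and 30.6 TPM (16.15 to 72.82). Both had their highest IL-10 B-WT value in replicate 1, and that value was above all 6 IL-10 B-KO lungs. The log2 fold changes, 0.78 (SE 0.50, adjusted p = 0.509) for Casp1 and 0.95 (SE 0.52, adjusted p = 0.46) for Casp4, were within the spread of the lungs. In the 10 lungs they were 1.44 (SE 0.34, adjusted p = 0.0153) and 1.58 (SE 0.36, adjusted p = 0.0125). The ratio of Casp4 to Casp1 within a lung had a median of 2.15 in lungs of IL-10 B-WT and of 2.12 in lungs of IL-10 B-KO mice, and its ranges overlapped (1.62 to 2.44 and 1.77 to 3.34).

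Gsdmd, the substrate of both caspases, was by median the most abundant of the 10 genes in IL-10 B-WT lungs and, next to Il18, varied least among them. Its median was 48.4 TPM in IL-10 B-WT lungs (22.97 to 111.82) and 67.4 TPM across IL-10 B-KO lungs (57.64 to 118.13). The log2 fold change was 0.56 (SE 0.32, adjusted p = 0.468), and 0.86 without the 2 libraries (adjusted p = 0.0518). Il18, a cytokine that epithelial cells also store as a precursor, had the narrowest range: 2.23 to 9.74 TPM (median 8.43) and 6.54 to 13.33 TPM (median 9.14). Only IL-10 B-WT replicate 5, at 2.23 TPM, was set off from the others. Its log2 fold change of 0.37 (SE 0.28, 95% interval -0.24 to 0.98) was not significant (adjusted p = 0.567), nor was that in 10 lungs (0.38, adjusted p = 0.439). Il18 also departed from the other genes in its pattern over lungs, since IL-10 B-WT replicate 1, at 8.92 TPM, was close to its neighbours and IL-10 B-KO replicate 2 was the next to highest IL-10 B-KO lung.

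The genes that restrain IL-1 had the largest differences and the widest spread. Il1rn, the receptor antagonist, had 253.38 TPM in IL-10 B-WT replicate 1 and 42.41 TPM in replicate 3, while the other 4 IL-10 B-WT lungs lay between 1.8 and 9.25 TPM. Of the IL-10 B-KO lungs, 5 reached 71.5 to 190.01 TPM, and replicate 2 had 6.57 TPM. The medians were thus 7.78 and 81.3 TPM, a ratio of 10.4, and Il1rn went from the 8th place among the 10 genes in IL-10 B-WT lungs to the 1st in IL-10 B-KO lungs. Because the spread was as wide as the difference, the log2 fold change of 2.13 (SE 1.03, 95% interval -0.09 to 4.35) was not significant (adjusted p = 0.417; exact permutation p = 0.113). In the 10 lungs it was 3.57 (SE 0.60, adjusted p = 0.00309).

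Il1r2, the decoy receptor that neutrophils and macrophages carry, had the largest log2 fold change of the 10 genes and the smallest p. It lay at 0.85 to 36.62 TPM in IL-10 B-WT lungs, with a median of 4.12, and at 4.46 to 121.02 TPM among IL-10 B-KO lungs (median 37.8), a ratio of 9.17 between the medians. IL-10 B-WT replicate 1 held the 36.62 TPM, the remaining 5 reached at most 6.09 TPM, and 3 IL-10 B-KO lungs were above every IL-10 B-WT lung. The log2 fold change was 2.38 (SE 0.80, 95% interval 0.66 to 4.10), with an unadjusted p of 0.0103, an exact permutation p of 0.0325 and an adjusted p of 0.292. In the 10 lungs it was 3.42 (SE 0.56, adjusted p = 0.00287). By contrast, Il1r1, the receptor that carries the signal and that lung endothelium and stroma express widely, had medians that lay close together: 6.7 to 32.79 TPM (median 12.6) and 10.68 to 29.03 TPM (median 13.9). Its log2 fold change of 0.16 (SE 0.34, 95% interval -0.57 to 0.90, adjusted p = 0.848) leaves room for a difference in either direction, and it turned to -0.03 without IL-10 B-WT replicate 5 and to -0.01 without IL-10 B-KO replicate 3.

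**Figure D2:**
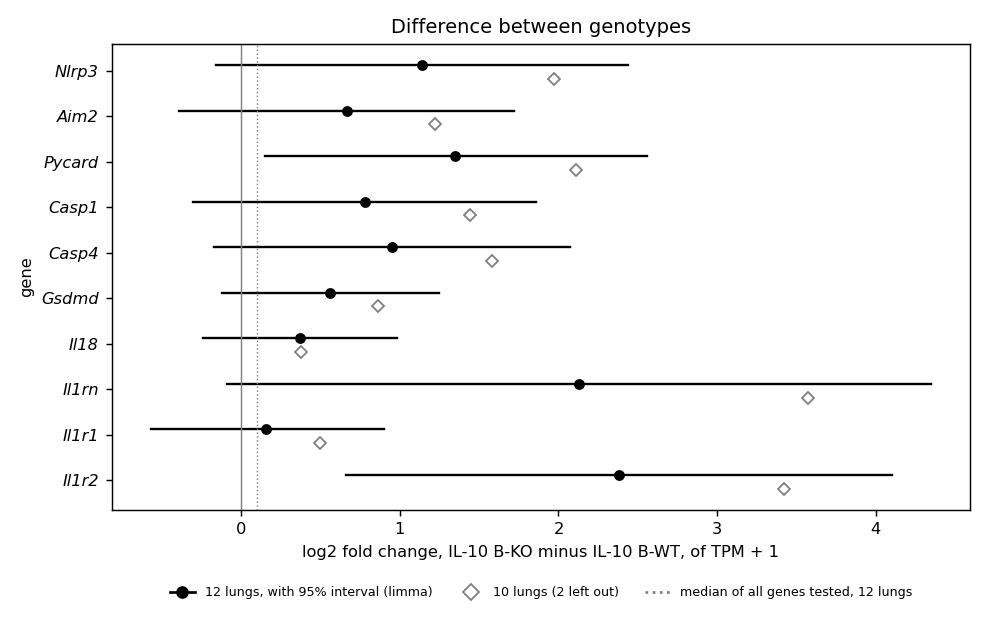
Log2 fold change of TPM + 1, IL-10 B-KO minus IL-10 B-WT, for each gene: filled points with 95% intervals are all 12 lungs (limma), open diamonds the 10 lungs without the 2 libraries that stood apart. All 10 points lie above 0, 2 intervals (Pycard and Il1r2) exclude 0, and the diamonds of Il1rn and Il1r2 lie at 3.57 and 3.42.

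Since TPM are per length, levels of different genes can be set against each other within a lung, which was done as a description with no test. The ratio of decoy to signalling receptor, Il1r2 to Il1r1, was 0.127 to 0.448 in 5 IL-10 B-WT lungs and 1.12 in replicate 1. Among IL-10 B-KO lungs it was 0.415 in replicate 2 and 1.21 to 5.51 in the others, so 5 of 6 lay above every IL-10 B-WT lung. The median went from 0.278 to 2.11: in the median IL-10 B-WT lung the signalling receptor was the more abundant transcript, and in the median IL-10 B-KO lung the decoy was. For the antagonist against its competitors, Il1rn to the sum of Il1a and Il1b, the median was 0.389 (0.114 to 0.958) and 0.981 (0.232 to 1.4), and 3 of 6 IL-10 B-KO lungs were above all IL-10 B-WT lungs. Il18bp, which encodes a secreted protein that binds IL-18, exceeded Il18 in all 12 lungs, by 1.31 to 33.0 times in IL-10 B-WT lungs (median 3.22) and by 1.83 to 19.8 times in IL-10 B-KO lungs (median 12.7). This last ratio was added after the values were seen.

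**Figure D3:**
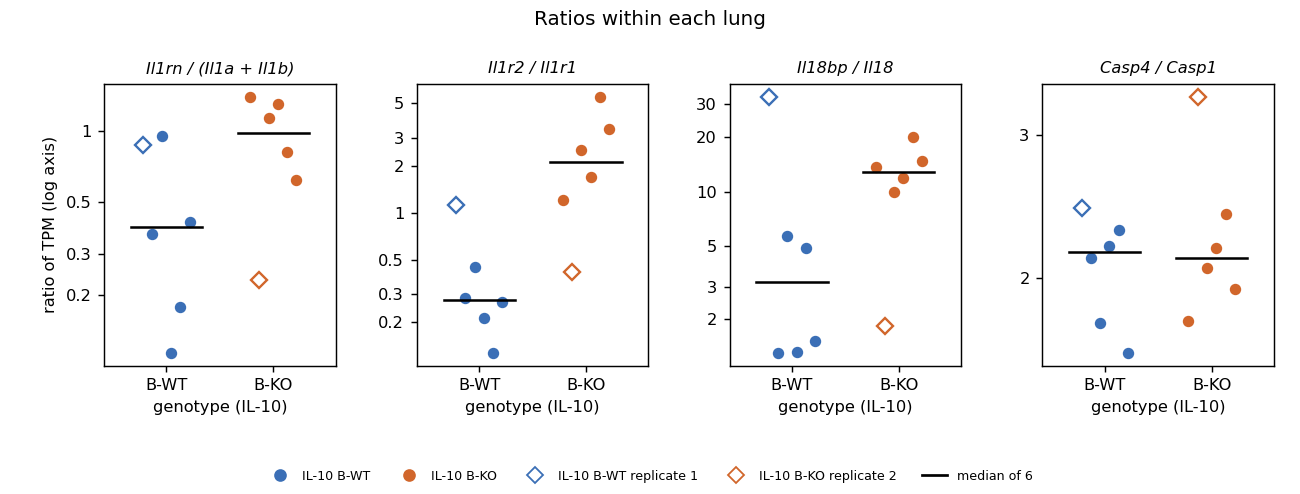
Ratios of TPM within each lung (log axes) by genotype, with the median of 6 as a bar and the 2 libraries that stood apart as open diamonds. The ratio of Il1r2 to Il1r1 is above 1.12 in 5 of 6 IL-10 B-KO lungs, whereas the ratio of Casp4 to Casp1 has medians of 2.15 and 2.12.

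The 10 genes varied together over the 12 lungs. Spearman's rho was above 0 in 45 of 45 pairs of genes and lay between 0.343 and 0.986, with a median of 0.874. The points of these correlations share the libraries, the genotypes and the common total of TPM, so they describe the lungs and carry no p. IL-10 B-WT replicate 5 was the lowest IL-10 B-WT lung in 10 of 10 genes, and IL-10 B-KO replicate 5 was the highest IL-10 B-KO lung in 9 of 10. Averaged over the genes, the rank among 12 lungs ran from 1.0 in IL-10 B-WT replicate 5 to 11.1 in replicate 1 of that genotype, and from 4.5 in IL-10 B-KO replicate 2 to 11.3 in replicate 5. The spread within a genotype was widest for the genes that restrain IL-1: the highest IL-10 B-WT lung had 141 times the Il1rn and 43.1 times the Il1r2 of the lowest, where it had 4.87 times the Gsdmd and 4.37 times the Il18.

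The genes with the most similar order of lungs were sought among those with a mean of at least 5 TPM, by Spearman's rho over the 12 libraries. For Il1r2 these were Ccr1, a chemokine receptor of neutrophils and monocytes, and Cd33 (both 0.993). For Il1rn they were Clec4n (0.993), the lectin receptor dectin-2 of myeloid cells, and Bak1 (0.986). Casp1 was nearest to Ifi211, an interferon-induced gene of the AIM2-like family, and Lacc1 (both 0.993), and Gsdmd to H2-T22 (0.993) and the interferon-induced Oas1g (0.991). Casp4 was nearest to Pdia3 (0.993) and to Il1rn itself (0.986), Nlrp3 to N4bp1 and Rnpep (both 1.0), Aim2 to Max and Sema4d (both 0.993) and Pycard to 1600014C10Rik and 5031439G07Rik (both 0.993, a value that 16 genes reached). For Il1r1 they were Fndc3a and Sbno1 (both 0.993), and for Il18 they were Rnmt (0.916) and Snrpb (0.909). Where genes tied, those named come first by alphabet: the lower of each pair of values was reached by 3 genes for Nlrp3, Casp4 and Il1r2, by 4 for Casp1 and by 7 for Il1rn. With 12 points many genes come close to these values, and Il18 had the least similar neighbours.

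Markers of myeloid cells, which carry many of these genes, were high and low in the same lungs. In bulk tissue, more cells of a type and more RNA per cell cannot be told apart. The 10 monocyte and macrophage markers (among them Cd68, Csf1r and Lyz2) summed to 756 to 13499 TPM in IL-10 B-WT lungs (median 3332) and to 3637 to 11812 TPM in IL-10 B-KO lungs (median 10039). All 10 were higher in the mean, with 10 of 10 at an unadjusted p of at most 0.05 and 0 called. The 10 neutrophil markers (among them Ly6g and S100a8) summed to 345 to 2583 TPM (median 860) and 1127 to 7753 TPM (median 3411), with 8 of 10 at an unadjusted p of at most 0.05 and 0 called. The 2 libraries that stood apart in the 10 genes each lay at one end of their genotype. IL-10 B-WT replicate 1 had the highest IL-10 B-WT sums (13499 and 2583 TPM), and IL-10 B-KO replicate 2 had the lowest IL-10 B-KO sums (3637 and 1127 TPM). At the other end, IL-10 B-WT replicate 5 had the lowest IL-10 B-WT sums (756 and 345 TPM). IL-10 B-KO replicate 5 had the highest neutrophil sum (7753 TPM), but not the highest monocyte and macrophage sum. No marker of either list was at 0 in any library. Single genes dominate both sums: Lyz2 made up 71.8% to 91.4% of the first, and S100a9 with S100a8 most of the second.

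**Figure D4:**
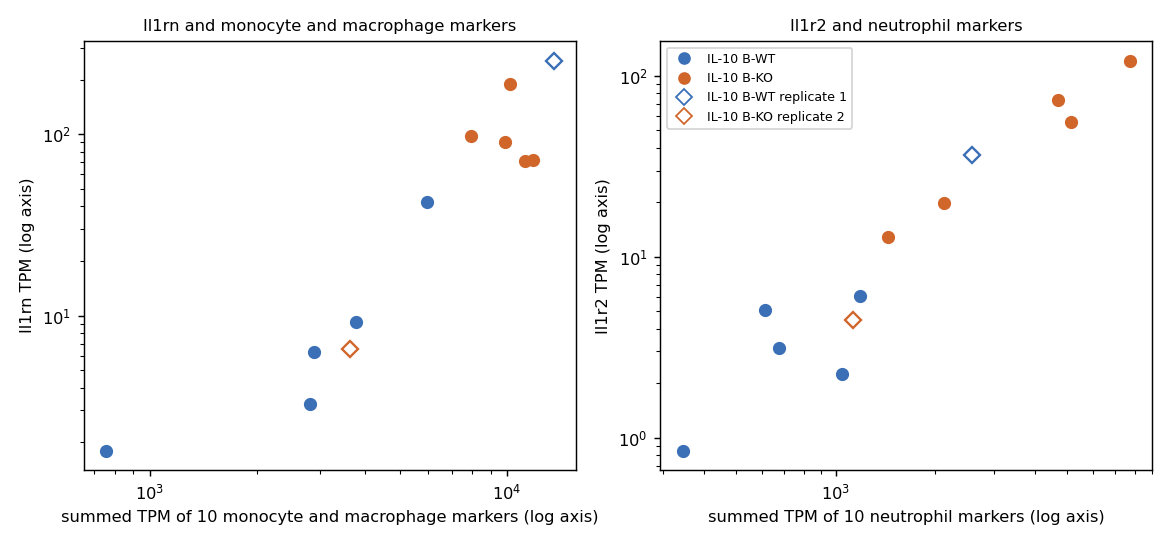
TPM of Il1rn against the summed TPM of 10 monocyte and macrophage markers (left) and of Il1r2 against that of 10 neutrophil markers (right), 1 point per lung, all axes log. IL-10 B-WT replicate 1 (blue diamond) lies among or above the IL-10 B-KO lungs and IL-10 B-KO replicate 2 (orange diamond) among the IL-10 B-WT lungs.

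Set against these sums, the genes differed in pattern, given here as values chosen after the data were seen and with no test. Per 1000 TPM of monocyte and macrophage markers, the median of Il1rn was 2.41 TPM for IL-10 B-WT and 7.79 TPM for IL-10 B-KO, and that of Il1r2 was 1.11 and 3.61 TPM. For Pycard the medians were 5.05 and 5.81 TPM, and for Nlrp3 0.698 and 1.0 TPM. In the other 6 genes the median per marker was lower for IL-10 B-KO, among them Casp1 (2.35 and 1.49 TPM), Gsdmd (11.6 and 7.2 TPM) and Il1r1 (3.93 and 1.81 TPM). Without Lyz2 in the sum, the medians of Il1rn (18.7 and 39.7 TPM) and Il1r2 (8.78 and 21.0 TPM) kept their order, that of Pycard turned (36.2 and 32.0 TPM), that of Nlrp3 was 5.9 and 5.96 TPM, and the 6 others were again lower for IL-10 B-KO. Per 1000 TPM of neutrophil markers, the median of Il1r2 was 4.89 and 10.1 TPM and that of Il1rn 12.2 and 21.9 TPM. Ranges of the genotypes overlapped in each of these ratios, and the part of the cell types in the differences was not tested.

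Markers of other cell types gave other patterns. Alveolar macrophage markers summed to 643 to 1071 TPM and 888 to 1858 TPM, with 7 of 8 higher and 1 of 8 at an unadjusted p of at most 0.05. Single genes dominate this sum too: Car4 made up 6.51% to 82.0% of it and Chil3 3.04% to 75.2%. Their log2 fold changes were -0.81 for Car4, the only lower marker, and 1.76 for Chil3, so the sum is a poor measure of alveolar macrophages. B cell markers were lower in 7 of 7 cases (71.1 to 851 TPM and 5.81 to 79.8 TPM), with 7 at an unadjusted p of at most 0.05 and 1, Cd79a, called. Up to 2 of 7 B cell markers were at 0 in an IL-10 B-KO library. Replicates 1, 3, 4 and 5 of this genotype had B cell marker sums of only 5.81 to 12.6 TPM. Replicate 6 had 49.4 TPM, and replicate 2, at 79.8 TPM, lay within the range of the controls. Whether lungs with low sums held fewer B cells was not tested, nor was any part of this in the differences of the 10 genes. T cell markers were higher in 3 of 6 cases (21.3 to 172 TPM and 24.0 to 177 TPM) and endothelial markers in 0 of 6 (1367 to 2639 TPM and 1342 to 2348 TPM). Lung epithelial markers were higher in 4 of 7 cases, with 2 at an unadjusted p of at most 0.05, while their sum had medians of 62631 and 32043 TPM. Scgb1a1, a club cell gene, made up 34.4% to 88.6% of that sum in the 12 lungs, with medians of 45600 TPM for IL-10 B-WT and 17500 TPM among IL-10 B-KO lungs (log2 fold change -1.12, limma, unadjusted p = 0.0684), and the surfactant genes Sftpc, Sftpb and Sftpa1 had log2 fold changes of 0.45, 0.74 and 1.09.

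The other genes of the pathway were read from a list of 49 genes of inflammasomes and of the IL-1 family, of which 47 were found by symbol and 39 passed the filter. Of these 39, 36 had a positive log2 fold change and 3 a negative one (Nek7 at -0.03, Txnip at -0.14 and Sigirr at -0.16), with a median of 0.52. Among all tested genes, 63.2% had a positive log2 fold change, and the median was 0.10. None was called in limma. At an unadjusted p of at most 0.05, 8 were higher (beside 6.83% of all genes) and 0 lower, with all 12 lungs. Without the 2 libraries that stood apart, 25 were higher at that p, beside 21.7% of all genes, and 16 were called higher, beside 7.04%. By role, 10 of 10 sensors had a positive log2 fold change with 5 at an unadjusted p of at most 0.05, as did 4 of 4 ligands with 1, and 8 of 8 signalling genes such as Myd88 with 0. Among 6 activators and regulators, 4 were positive with 0 at that p.

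Of the sensors, Naip2 (log2 fold change 1.28), Naip5 (0.89) and Naip6 (0.77), which recognise bacterial flagellin and secretion system proteins together with Nlrc4, had unadjusted p values of 0.019, 0.0238 and 0.0282 (adjusted p = 0.328, 0.343 and 0.353). Nlrx1 and Nlrp12, regarded as restrainers of inflammatory signalling, had log2 fold changes of 0.84 and 0.69 (limma, unadjusted p = 0.0189 and 0.0196, adjusted p = 0.328 and 0.33). The Naip genes are close paralogs, and how the reads shared by them were divided is uncertain, likewise for Nlrp1b (0.92, unadjusted p = 0.0508). Nlrc4, the partner of the Naip proteins, was at 0.33 to 3.17 TPM for IL-10 B-WT and 0.79 to 2.16 TPM for IL-10 B-KO (log2 fold change 0.38, adjusted p = 0.559). P2rx7, the ATP receptor upstream of Nlrp3, did not differ detectably (0.08, adjusted p = 0.879; medians 28.7 and 27.6 TPM).

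Of the ligands, Il1b had a median of 24.4 TPM in IL-10 B-WT lungs (7.06 to 250.78) and 68.0 TPM across IL-10 B-KO lungs (22.6 to 209.57), and Il1a of 3.22 TPM (2.1 to 40.09) and 9.39 TPM (5.03 to 22.8). In both genes the highest value of all 12 lungs was IL-10 B-WT replicate 1. Their log2 fold changes were 1.24 (SE 0.72, adjusted p = 0.477) and 0.81 (adjusted p = 0.534), and in 10 lungs 2.17 (adjusted p = 0.00989) and 1.5 (adjusted p = 0.00757). Il33, an alarmin of epithelial and stromal nuclei, was at 17.4 and 36.2 TPM in the median (log2 fold change 1.11, unadjusted p = 0.0362, adjusted p = 0.375). Exons of Il1a and Il1b overlap antisense genes (Gm14023 and Il1bos), with the same limit as for Pycard.

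Il18bp had the largest log2 fold change among the 39 genes, 1.78 (unadjusted p = 0.0439, adjusted p = 0.381). It was at 10.7 to 11.51 TPM in 4 IL-10 B-WT lungs, at 55.44 TPM in replicate 3 and at 294.03 TPM in replicate 1, and at 20.39 TPM in IL-10 B-KO replicate 2 and 95.49 to 263.87 TPM in the other IL-10 B-KO lungs. The high and low lungs were thus those of Il1rn. Exons of Il18bp overlap those of Numa1 on the other strand, with the same limit as for Pycard, which also bears on the ratio of Il18bp to Il18. Il18rap, the signalling chain of the IL-18 receptor and the last gene of the receptor cluster that begins with Il1r2, had a log2 fold change of 1.13 (unadjusted p = 0.017, adjusted p = 0.328; medians 4.05 and 11.1 TPM). Its partner Il18r1 had 0.22 (adjusted p = 0.73; medians 30.6 and 31.3 TPM), and Il1rap, the coreceptor of Il1r1, had 0.35 (adjusted p = 0.512; medians 5.46 and 7.19 TPM). For the IL-1 and the IL-18 receptor, then, the transcript of the chain that binds the cytokine, Il1r1 or Il18r1, had a log2 fold change near that of the median gene.

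**Figure D5:**
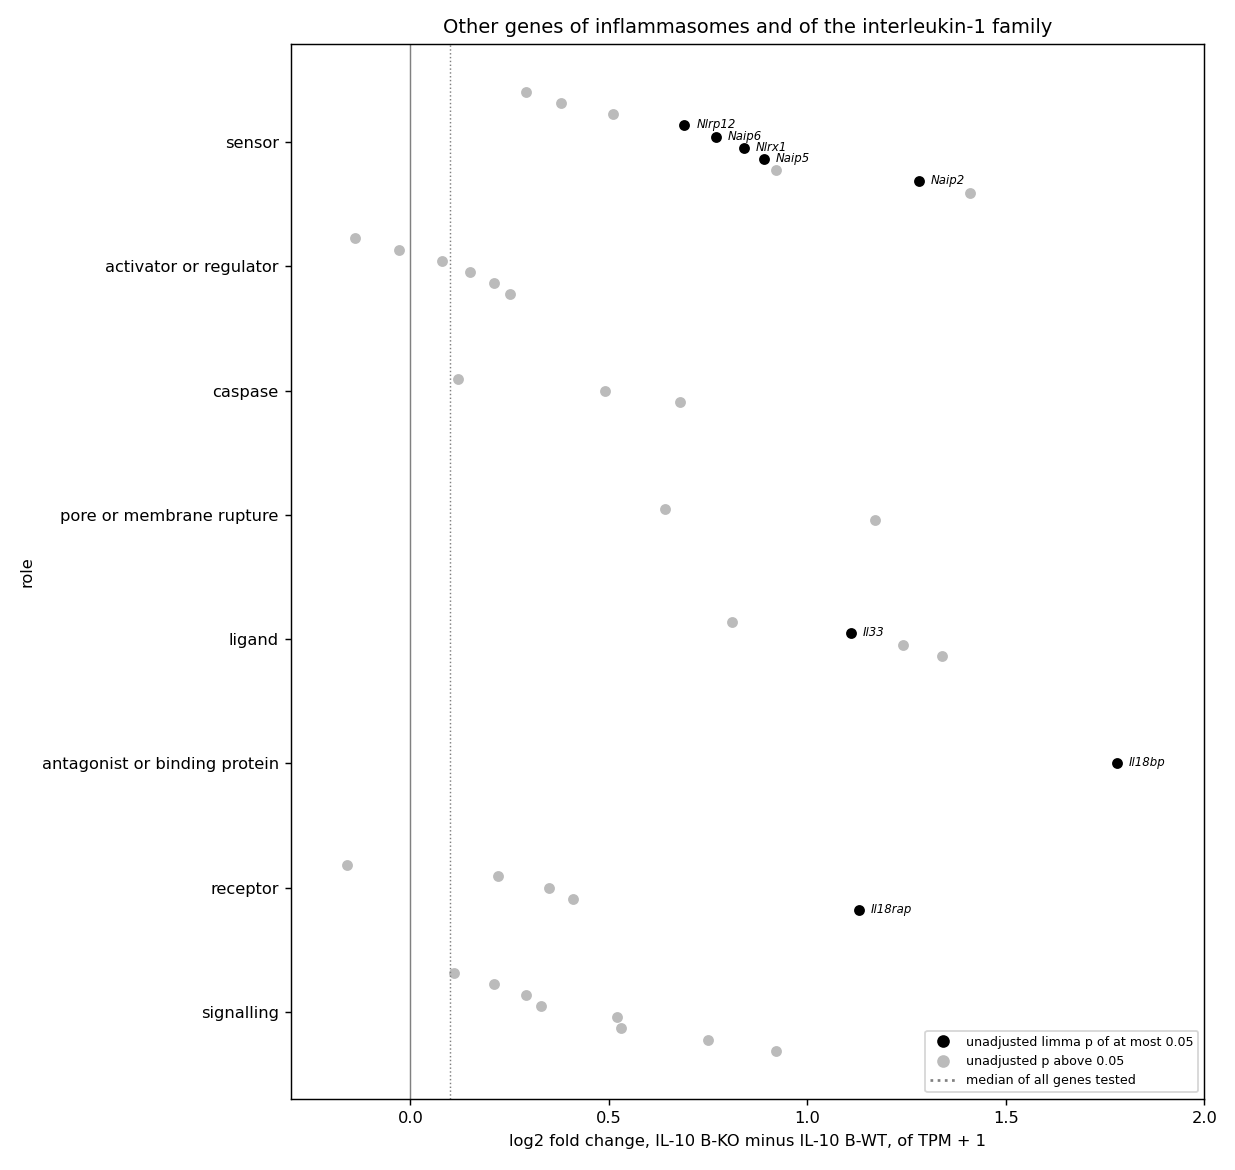
Log2 fold change of TPM + 1, IL-10 B-KO minus IL-10 B-WT, over 12 lungs for the 39 tested genes of the pathway list, 1 point per gene in rows by role. Black points, the 8 genes with an unadjusted limma p of at most 0.05, all lie above 0; the dotted line is the median of all tested genes, 0.10.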

How the data were processed

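Whole-lung RNA-seq of 12 mice, 6 of each genotype, was analyzed from 1 table. The authors deposited TPM, calculated with RSEM, 1 column per library without pooling and rounded to 2 decimals, and the submitters' processing notes also name fastp, HISAT and GRCm38.p5, with no versions. Columns summed to 991646 to 994430 TPM. TPM keep no depth, so no count model, counting error or detection limit was possible, and precision rests on the spread between mice. Annotation columns were not used, and each of the 12 value columns was (0 unused).

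Groups came from the genotype labels and columns from their names. Genotypes were compared on log2(TPM + 1) in limma 3.58.1 (R 4.3.3; lmFit, then eBayes with a trend) without covariates, over the 15148 genes with at least 1 TPM in at least 6 libraries, and p-values were adjusted by Benjamini-Hochberg. Exact permutation tests were two-sided over 924 arrangements. Other steps used pandas 2.3.3, SciPy 1.17.1, NumPy 2.4.6 and matplotlib 3.10.9 in Python 3.11.15. The fit was checked on simulated data.

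The 10 genes, the pathway list and the marker lists were chosen with earlier results of these data known. Named genes were all 10, 9 fixed genes of the pathway list, its up to 8 tested genes with the smallest unadjusted p of at most 0.05, and per gene 2 with the highest Spearman's rho, ties being broken by alphabet. Beyond this rule, the 3 pathway genes with a negative log2 fold change were named after their values were seen. So were the marker genes given with values, other than Cd79a. The motifs, both comparisons at 5 against 5 lungs and the ratios to marker sums were also chosen after the values were seen. Coordinates came from GENCODE M21 (GRCm38) and promoters from RefSeq (GRCm38.p6). The symbols Pydc3 and Pydc4 were not found in the table. The fit was repeated with each library omitted, with array quality weights, with replicate number as a block, after median centring, quantile normalization or removal of immunoglobulin genes, with a pseudocount of 0.1, unfiltered, and with a mean of at least 5 TPM.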

Additional observations from a re-analysis of the deposited data

Results flagged for a closer look

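In 26 groups of 6 lungs (the 10 genes, Il1a, Il1b and Il18bp in each genotype), the gap of the highest or lowest lung to its nearest neighbour was compared with the range of the group on the log2(TPM + 1) scale. A gap above Dixon's 95% critical value was found in 6 groups, where chance sets off about 1 in 20. IL-10 B-WT replicate 1 was high for Nlrp3 (31.67 TPM, ratio 0.638) and for Il1a (40.09 TPM, ratio 0.83). IL-10 B-KO replicate 2 was low for Pycard (12.73 TPM, ratio 0.673) and for Il1rn (6.57 TPM, ratio 0.7). IL-10 B-KO replicate 5 was high for Gsdmd (118.13 TPM, ratio 0.626), and IL-10 B-WT replicate 5 was low for Il18 (2.23 TPM, ratio 0.757). The first 4 come from the 2 libraries that stood apart. Of these, IL-10 B-WT replicate 1 had the highest and IL-10 B-KO replicate 2 the lowest myeloid marker sums of their genotype. IL-10 B-WT replicate 5 had the lowest such sums of its genotype, and IL-10 B-KO replicate 5 the highest neutrophil marker sum. These lungs are not independent across genes, since the genes varied together.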

How the results depend on the processing

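Under the alternatives chosen at the outset, 195 values for single genes kept their direction and side of the threshold, 3 became significant and 2 reversed: the log2 fold change of Il1r1 ranged from -0.03 (IL-10 B-WT replicate 5 left out) to 0.4 and was -0.01 with IL-10 B-KO replicate 3 left out. The 3 were Nlrp3 and Il1r2 without IL-10 B-WT replicate 1, and Il1r2 with array quality weights (2.41, adjusted p = 0.0475). With array quality weights, 1 of the 10 genes was called and 6 were at an unadjusted p of at most 0.05 (2 in the reported fit), and 1 of the pathway list was called and 21 passed that p (8 in the reported fit). For the pathway list this count was 5 with a mean TPM of at least 5 and 13 with median centring, which moved the median of all genes from 0.10 to -0.01. With single lungs left out, between 1 and 8 of the 10 genes passed the unadjusted p and between 0 and 2 were called, and for the pathway list the counts were 3 to 24 and 0 to 7. The count of 10 genes at that p was 8 when IL-10 B-WT replicate 1 was omitted, 5 for IL-10 B-KO replicate 2, and 1 for IL-10 B-WT replicates 4, 5 or 6 and IL-10 B-KO replicates 3, 5 or 6. Without both libraries that stood apart, 6 of 10 were called, 8 passed the unadjusted p and 6 had groups without overlap, with 16 and 25 genes of the pathway list. With replicate 5 of both genotypes left out, also chosen after seeing the data, 0 of the 10 genes and 0 of the pathway list passed the unadjusted p, 0 were called, and the log2 fold change of Il1r1 was -0.12. Samples with the same replicate number did not deviate together (correlations from -0.292 to 0.0458), so the numbers give no pairing. With the replicate number as a block, 1 of the 10 genes passed the unadjusted p and 0 were called. Over all genes, 75 were called in the reported fit, 318 with array quality weights, 604 without IL-10 B-WT replicate 1, 6 without a filter and 1492 without both libraries. The share of higher genes among those at the unadjusted p was 54.4% in the reported fit and fell to 27.7% without IL-10 B-WT replicate 5. The depth behind each value is unknown, which limits the low genes most.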
